A study of Mus musculus with 12 samples.

Results

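The replication-dependent histone genes of the mouse lung were read on 52 transcript clusters of an array with 35556 clusters in all. A cluster is the set of probes that the array combines into 1 value. A cluster was taken when the platform's annotation gave it a gene symbol beginning with H2ac, H2bc, H3c or H4c and a digit, or one of H1f1 to H1f5, the current names of most genes once called Hist1h or Hist2h. The annotation placed 26 of the 52 clusters on 1 gene each and let the other 26 be shared by several histone genes, and 62 histone genes were named among them. The lungs came from male and female C57BL/6J mice aged 8 to 10 weeks, kept for 48 h in room air or in hyperoxia with an inspired oxygen fraction above 95%. There were 4 groups (female room air, female hyperoxia, male room air and male hyperoxia) of 3 arrays each, and every array carried lung RNA pooled from 4 mice. The error of a value is therefore that of pools of whole lung, not of animals. No allele or transgene was involved in any group, and no drug set the groups apart. The paper states that animals were anesthetized with sodium pentobarbital before the lungs were taken. Values are log2 of the probe signal as the authors deposited it, and a change is the log2 value in hyperoxia minus that in room air.

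Each nucleosome wraps DNA around a core made of the histones H2A, H2B, H3 and H4, and the linker histone H1 binds where the DNA enters and leaves the core. The replication-dependent genes supply these proteins while DNA is copied. They lie in clusters of many near-identical copies, carry no introns, and give mRNAs that end in a stem-loop in place of a poly(A) tail, which the stem-loop binding protein Slbp recognises. Their transcription is driven by Npat at histone locus bodies and rises at the start of S phase, and the mRNAs are degraded when DNA synthesis stops. The labelling kit used for these arrays primes RNA with and without a poly(A) tail.

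The copies of 1 histone type are so alike that many probes cannot tell them apart. Of the 26 shared clusters, 10 carried one and the same set of 12 H3 genes, and their values ran in parallel over the 12 arrays (lowest pairwise Pearson r 0.994, as a description of shared probes). Another 7 were H2B clusters in 2 annotated sets of 14 and 15 genes, 5 were H4 clusters of 1 set of 11 genes, and 1 was an H4 cluster of 2 genes. A pair of the H2B clusters and a pair of the H4 clusters held identical values on every array. The last 3 shared clusters spanned several types, 1 with 20 and 1 with 19 genes, mostly of H2A, and 1 with a single H2B and a single H1 gene. Shared clusters are therefore described by type and by number of genes, and they are not independent measurements. In all, the 52 clusters held 34 distinct annotations, 4 in H1, 4 in H2A, 11 in H2B, 4 in H3, 8 in H4 and 3 across types.

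The promoters differed between the histone types. RefSeq promoter windows on GRCm38.p6 were at hand for 57 of the 62 genes, and 4 runs of letters were sought on both strands in the 250 bases before each start. CCAAT, the box bound by NF-Y, was found in all 5 H1, all 17 H2A and all 14 H2B windows, in 8 of 10 H3 windows and in 3 of 11 H4 windows, against 33.8% of 32851 mouse promoters of the same length. The octamer ATTTGCAT, read by Oct1 in H2B genes, was in 6 of 14 H2B and 6 of 17 H2A windows and in none of the H1, H3 or H4 windows, against 1.6% of all promoters. Some of these windows overlap, because many H2A and H2B genes start back to back. TATAAA was in 28 of the 57 windows, against 12.4% of all promoters. GGTCC, letters of the H4 promoter element that were added to the search after the first sequences had been read, was in 10 of 11 H4 windows and in 39.8% of all promoters. A match is a run of letters and not a measured site. The 150 bases before the start, 5′ to 3′ along the gene and with the 4 runs on either strand in capitals, are printed for a selection of the genes described below, first the H2A, H2B and H3 genes that fell, then 2 H4 genes and 1 H1 gene that were not called.
H2ac4 (chr13:23750938-23751087, plus strand): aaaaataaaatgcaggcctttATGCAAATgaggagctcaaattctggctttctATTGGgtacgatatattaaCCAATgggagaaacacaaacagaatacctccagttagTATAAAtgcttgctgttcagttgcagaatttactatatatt
H2ac15 (chr13:21753913-21754062, minus strand): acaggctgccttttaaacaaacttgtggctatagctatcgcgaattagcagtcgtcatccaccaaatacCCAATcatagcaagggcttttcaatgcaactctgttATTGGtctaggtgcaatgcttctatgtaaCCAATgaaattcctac
H2bc3 (chr13:23746584-23746733, plus strand): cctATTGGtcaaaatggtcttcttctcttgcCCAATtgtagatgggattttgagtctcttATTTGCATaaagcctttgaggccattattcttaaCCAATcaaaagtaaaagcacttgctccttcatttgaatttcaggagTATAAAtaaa
H2bc14 (chr13:21721894-21722043, plus strand): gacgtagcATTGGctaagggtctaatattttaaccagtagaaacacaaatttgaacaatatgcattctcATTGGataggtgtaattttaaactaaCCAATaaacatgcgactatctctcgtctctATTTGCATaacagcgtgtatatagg
H3c4 (chr13:23575613-23575762, plus strand): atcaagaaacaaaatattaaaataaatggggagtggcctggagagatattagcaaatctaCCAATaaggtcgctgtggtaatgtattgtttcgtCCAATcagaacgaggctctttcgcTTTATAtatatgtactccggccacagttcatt
H3c15 (chr3:96239128-96239277, minus strand): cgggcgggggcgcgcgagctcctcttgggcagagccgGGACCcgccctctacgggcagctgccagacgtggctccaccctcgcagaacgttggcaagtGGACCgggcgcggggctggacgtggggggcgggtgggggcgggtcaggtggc
H4c8 (chr13:23530894-23531043, plus strand): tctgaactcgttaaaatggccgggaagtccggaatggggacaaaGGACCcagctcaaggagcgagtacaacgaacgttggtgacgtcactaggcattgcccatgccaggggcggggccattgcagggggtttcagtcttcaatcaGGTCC
H4c4 (chr13:23581418-23581567, plus strand): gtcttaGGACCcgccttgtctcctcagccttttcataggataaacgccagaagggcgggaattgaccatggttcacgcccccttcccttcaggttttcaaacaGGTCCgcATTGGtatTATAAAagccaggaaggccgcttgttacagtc
H1f2 (chr13:23738657-23738806, plus strand): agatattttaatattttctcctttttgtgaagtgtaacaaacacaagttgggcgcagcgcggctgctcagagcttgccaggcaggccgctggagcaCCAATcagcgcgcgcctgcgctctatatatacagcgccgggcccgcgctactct

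In these stretches H2bc3 and H2ac4 each showed the octamer, more than one CCAAT box and the TATA motif. H3c15, which fell most among the H3 genes measured alone, showed only GGTCC, and H4c8 likewise showed only GGTCC. H4c4 held GGTCC together with the CCAAT box and the TATA motif. No relation between these letters and the changes below was tested.

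After 48 h of hyperoxia most clusters of the core histones H2B and H3, and 1 of the 4 of H2A, were downregulated in both sexes. H4 and H1 clusters were not called, and none of the 52 clusters was upregulated. A cluster was called when limma, fitted over all clusters, gave a Benjamini-Hochberg adjusted p under 0.05 and the fold was at least 1.4, the thresholds of the study. In females 25 of the 52 clusters were called lower, where 2.93% of all clusters were called lower and 3.59% higher. In males 24 were called lower, where 3.39% of all clusters were called lower and 3.94% higher. Of these, 23 were called lower in both sexes, against 2.33% of all clusters. H2ac4 and H2bc14 passed in females alone and H2bc4 in males alone. Counting each annotated set of genes once, 11 of 34 were called in females and 10 in males. In whole-lung RNA, fewer cells that express a gene and less of its RNA per cell cannot be told apart.

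The direction was shared by nearly all members, while its size varied among the types. The log2 fold change was below 0 for 51 clusters in females and for 50 in males, with medians of -0.47 and -0.42, beside medians of -0.02 and -0.00 over all clusters. Every hyperoxia array lay below every room air array for 42 clusters in females and for 37 in males, beside 15.7% and 16.7% of all clusters. By adjusted p alone, 38 clusters were lower in females and 32 in males, beside 8.62% and 9.3% of all clusters. With both sexes averaged, 25 were called lower, beside 3.26% of all clusters. At a fold of at least 2 none was called in either sex.

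H3 had a median change of -0.71 in females and -0.52 in males, and 12 of its 13 clusters were called lower in each sex. H2B had -0.60 and -0.53, and 11 of its 16 clusters were called in each sex. H2A stood at -0.42 and -0.39 over 4 clusters, of which 2 were called in females and 1 in males. The 3 clusters across types had medians of -0.41 and -0.36 and were not called, although 3 passed the adjusted p alone in females and 2 in males. H4 changed less, with -0.21 and -0.15, and none of its 12 clusters was called, while 7 in females and 5 in males passed the adjusted p alone. H1 was at -0.20 and -0.07, and none of its 4 clusters was called or passed the adjusted p alone. The differences between types were not tested, and members of a type share probes.

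**Figure D1:**
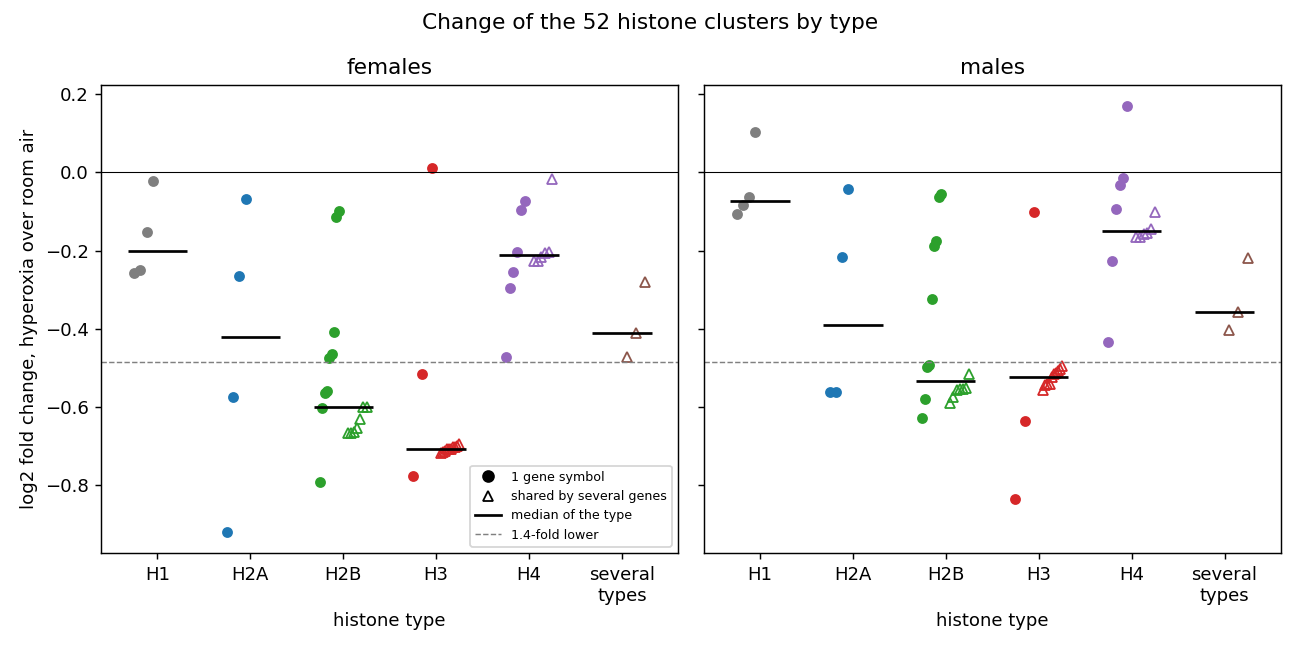
Log2 fold change of each of the 52 histone clusters in hyperoxia over room air, females on the left and males on the right, by histone type; filled circles are clusters of 1 gene, open triangles clusters shared by several genes, black bars the median of the type, and the dashed line a fold of 1.4. The shared H3 clusters of males lie between -0.56 and -0.50, close to the dashed line, and all H4 and H1 clusters lie above it.

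Among the H2B genes measured by a cluster of their own, H2bc3 fell most. Its log2 values in females were 8.68, 8.75 and 8.82 in room air and 8.09, 7.88 and 7.91 in hyperoxia. In males they were 8.56, 8.65 and 8.56 in room air and 8.08, 7.85 and 7.95 in hyperoxia. Every hyperoxia pool lay below every room air pool of either sex. The change was -0.79 ± 0.08 (SE, n = 3 arrays per group, limma adjusted p = 7.67e-05) in females, a 1.73-fold decrease, and -0.63 ± 0.08 (adjusted p = 0.000307) in males, a 1.54-fold decrease. H2bc8 (-0.60 and -0.50) and H2bc21 (-0.56 and -0.49) were also called lower in both sexes. Their male calls lay close to the fold of 1.4. That of H2bc8 was lost without male room air replicate 1 (-0.47) or 2 (-0.45), that of H2bc21 without male room air replicate 2 (-0.46) or male hyperoxia replicate 2 (-0.44). Both male calls were also lost after quantile normalization again (-0.48 for H2bc8 and -0.46 for H2bc21). The same held after centring each array on its median (-0.46 and -0.45).

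H2bc4 was the H2B cluster with the highest values. In males its room air values were 12.47, 12.71 and 12.51 and its hyperoxia values 11.92, 11.99 and 12.03. In females they were 12.46, 12.39 and 12.54 against 12.11, 11.78 and 12.12. The groups were apart in both sexes. The change of -0.58 ± 0.10 in males (limma adjusted p = 0.00212) was called, while that of -0.46 ± 0.10 in females (adjusted p = 0.00843) missed the fold of 1.4. H2bc14 was at -0.56 in females, which was called, and at -0.32 in males, which passed the adjusted p and not the fold. Without female room air replicate 1 its female change was -0.48 and was not called. Its female values were 9.78, 9.63 and 9.47 in room air and 9.09, 9.15 and 8.97 in hyperoxia, and its male values 9.46, 9.50 and 9.45 against 9.14, 9.22 and 9.08.

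The 7 shared H2B clusters were called lower in both sexes, at -0.67 to -0.60 in females and -0.59 to -0.52 in males. The one with the largest change in females, shared by 14 genes, read 11.53, 11.38 and 11.40 in female room air and 10.94, 10.66 and 10.71 in female hyperoxia. In males it read 11.27, 11.40 and 11.27 against 10.85, 10.72 and 10.83. The pools of each sex did not overlap. A further cluster of 14 genes changed by -0.67 and -0.57, and one of 15 genes by -0.66 and -0.59.

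The other H2B genes fell short of the call. H2bc18 was at -0.41 ± 0.06 in females and -0.19 ± 0.06 in males, with female values of 7.68, 7.71 and 7.63 in room air and 7.22, 7.34 and 7.26 in hyperoxia, and male values of 7.58, 7.42 and 7.45 against 7.34, 7.25 and 7.29. H2bc9 was at -0.48 in females and -0.06 in males, where the pools overlapped. H2bc22 was at -0.10 and -0.06. H2bc1, which encodes the testis form of H2B, was at -0.11 and -0.18, and its partner H2ac1, the testis form of H2A, at -0.27 and -0.22, with overlapping pools for both.

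Of the H2A genes, H2ac15 fell in both sexes. In females it read 10.42, 10.36 and 10.19 in room air and 9.85, 9.73 and 9.66 in hyperoxia, and in males 10.17, 10.25 and 10.04 against 9.62, 9.49 and 9.68. The change was -0.58 ± 0.09 (limma adjusted p = 0.000985) in females and -0.56 ± 0.09 (adjusted p = 0.00105) in males. The pools did not overlap in either sex.

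H2ac4 gave the largest change of any member in females, on dim probes. In females it read 6.21, 5.95 and 6.27 in room air and 5.60, 5.15 and 4.93 in hyperoxia. Its male values were 5.35, 5.85 and 5.58 against 5.18, 4.86 and 5.06. The 5th percentile of each array lay between 4.62 and 4.69, so the hyperoxia pools were close to the bottom of the range. The change was -0.92 ± 0.18 (limma adjusted p = 0.00509) in females and -0.56 ± 0.18 (adjusted p = 0.0552) in males. Without the 3 pools highest in squamous epithelium genes, described with the other cell markers, female room air was left with 1 pool, assumed to vary like the other groups, and the female adjusted p was 0.0617. H2ac8, whose promoter lies back to back with that of H2bc8, had a mean of 4.34, under the 5th percentile of every array, and changed by -0.07 and -0.04.

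The cluster across types with 20 genes, mostly of H2A, read 12.53, 12.57 and 12.43 in female room air and 12.07, 12.05 and 11.99 in female hyperoxia. In males it read 12.49, 12.33 and 12.39 against 12.04, 11.94 and 12.03. The pools did not overlap in either sex. The change was -0.47 ± 0.06 (limma adjusted p = 0.000451) in females and -0.40 ± 0.06 (adjusted p = 0.0011) in males, a 1.39-fold and a 1.32-fold decrease, both under the fold of 1.4.

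The H3 clusters shared by 12 genes were all called lower, at -0.72 to -0.69 in females and -0.56 to -0.50 in males. The brightest of them read 12.44, 12.39 and 12.19 in female room air and 11.73, 11.62 and 11.54 in female hyperoxia. In males it read 12.11, 12.11 and 12.02 against 11.53, 11.42 and 11.66. Its change was -0.71 ± 0.09 (limma adjusted p = 0.000273) in females and -0.54 ± 0.09 (adjusted p = 0.00133) in males. The male calls sit close to the fold of 1.4, which is 0.49 on the log2 scale. Leaving out male hyperoxia replicate 2, the lowest of the male pools on these clusters, took the male count of called members from 24 to 12, and centring each array on its median took it to 15. The 12 clusters lost without that replicate, all of H3 or H2B, then had changes between -0.48 and -0.43.

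H3c15, which lies in the smaller histone cluster on chromosome 3, was dimmer and more variable. The female pools read 6.77, 6.53 and 7.23 in room air and 5.99, 6.10 and 6.12 in hyperoxia. Its male values were 6.46, 7.02 and 6.59 against 6.05, 5.90 and 5.62. The change was -0.78 ± 0.19 (limma adjusted p = 0.017) in females and -0.84 ± 0.19 (adjusted p = 0.0108) in males. The female call was lost without female room air replicate 3, at -0.58 (adjusted p = 0.0539), and without female hyperoxia replicate 1, at -0.74 (adjusted p = 0.0588), and the male call was lost without male hyperoxia replicate 3, at -0.72 (adjusted p = 0.0502). Without the 3 pools highest in squamous epithelium genes, which left 1 female room air pool, the female change was -0.42 (adjusted p = 0.474). With each sex fitted alone and the replicate number as a block the male adjusted p was 0.0514.

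H3c4 also fell in both sexes, with a smaller change and less spread than H3c15. The female pools read 7.89, 7.68 and 7.74 in room air and 7.29, 7.17 and 7.30 in hyperoxia, and the male pools 7.70, 7.93 and 7.92 against 7.28, 7.03 and 7.34. The change was -0.52 ± 0.10 (limma adjusted p = 0.00458) in females and -0.63 ± 0.10 (adjusted p = 0.0012) in males. The female call of H3c4 was lost without female room air replicate 1 (-0.45), without female hyperoxia replicate 2 (-0.47) and, with 1 female room air pool left, without the 3 pools highest in squamous epithelium genes (-0.44, adjusted p = 0.205). H3c7 had a mean of 4.36, below the 5th percentile of every array, and changed by 0.01 and -0.10.

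**Figure D2:**
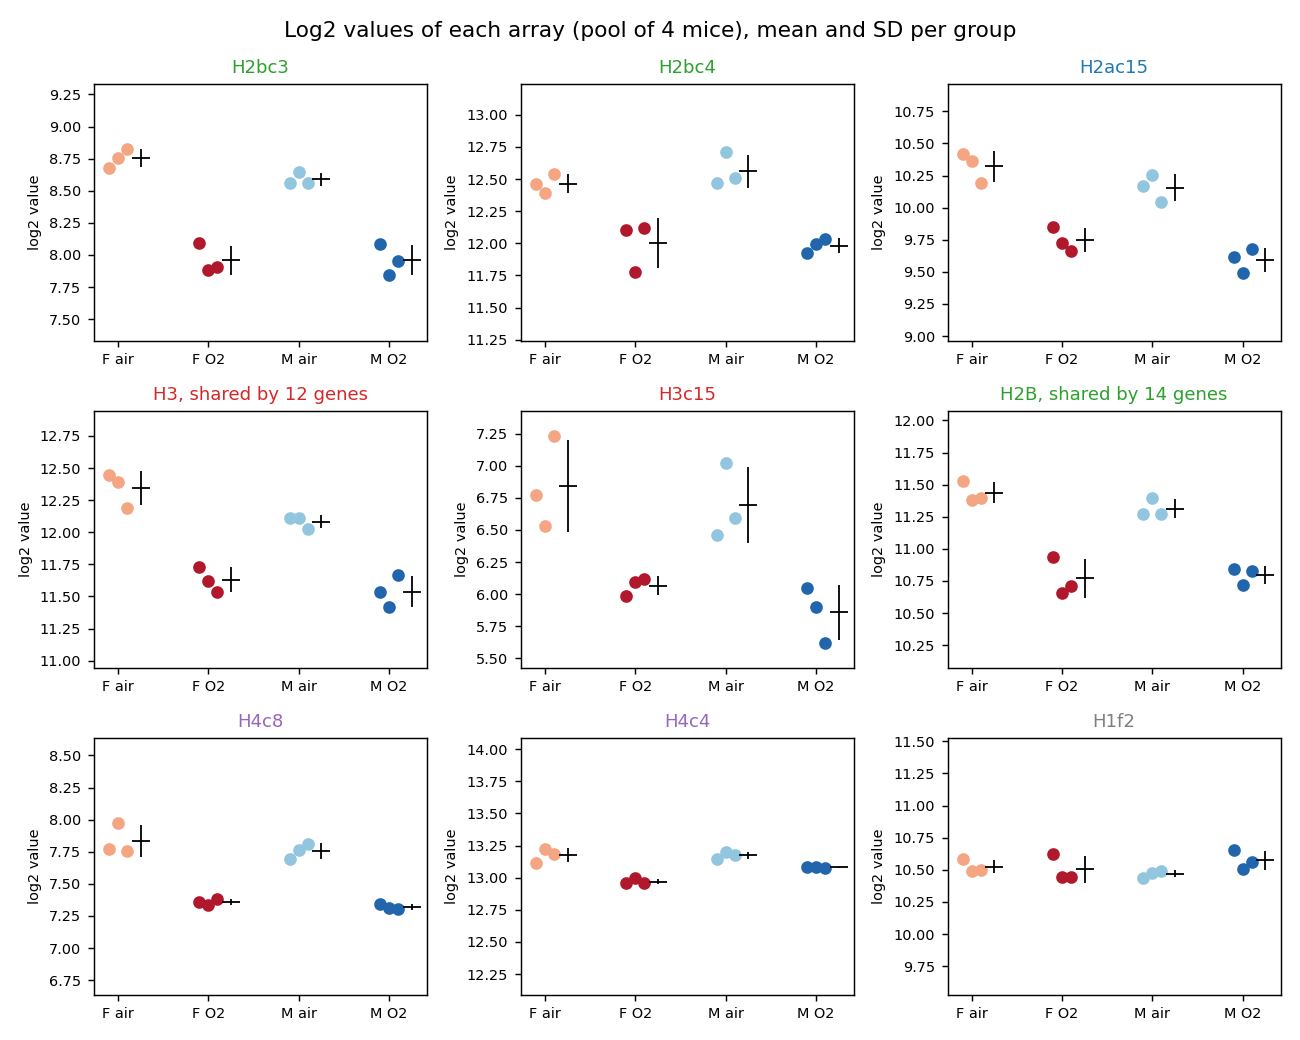
Log2 value of histone clusters on each of the 12 arrays (3 pools per group; F female, M male, air room air, O2 hyperoxia), with the mean and SD of the group as a bar beside the points; the span of every axis is 2 log2 units. The hyperoxia pools lie below the room air pools of the same sex in each panel but the H1f2 one, and the gap is widest for H2bc3 and H3c15 and narrow for H4c4.

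H4 had the smallest median change of the core histones, and many of its clusters were bright. The 5 clusters shared by 11 genes had means of 12.43 to 12.81, beside 99th percentiles of 12.80 to 12.87 over the arrays, and changed by -0.23 to -0.20 in females and -0.16 to -0.15 in males. For these 5 the pools did not overlap in either sex. The adjusted p was under 0.05 for all 5 in females and for 4 in males, and none reached a fold of 1.4. Whether signals near the top of the range compress a change was not tested.

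H4c8, with a mean of 7.57, was the H4 gene nearest to the call. The female pools read 7.77, 7.97 and 7.75 in room air and 7.36, 7.34 and 7.39 in hyperoxia, and the male pools 7.69, 7.76 and 7.81 against 7.35, 7.31 and 7.30. The change was -0.47 ± 0.07 (limma adjusted p = 0.000606) in females and -0.43 ± 0.07 (adjusted p = 0.000959) in males, with no overlap of pools. The female change was called without female room air replicate 1 (-0.50) or 3 (-0.51), without female hyperoxia replicate 3 (-0.49) and without the 3 pools highest in squamous epithelium genes (-0.61, with 1 female room air pool left). H4c4 was the brightest member of all 52. Its female values were 13.12, 13.22 and 13.18 in room air and 12.96, 13.00 and 12.96 in hyperoxia, and its male values 13.15, 13.20 and 13.18 against 13.08, 13.09 and 13.08. Its change was -0.20 ± 0.05 (adjusted p = 0.0133) in females and -0.09 ± 0.05 (adjusted p = 0.252) in males. H4c6 (-0.30 and -0.23), H4c9 (-0.10 and -0.03) and H4c14 (-0.07 and -0.01) did not pass the adjusted p.

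The linker histone gene H1f4 was read only on the cluster that it shared with 1 H2B gene. That shared cluster changed by -0.28 (limma adjusted p = 0.0276) in females and -0.22 (adjusted p = 0.075) in males. H1f1, H1f2, H1f3 and H1f5 were each read by 1 cluster of their own. H1f2, the brightest of them, had female values of 10.58, 10.49 and 10.50 in room air and 10.62, 10.44 and 10.45 in hyperoxia, and male values of 10.44, 10.47 and 10.49 against 10.65, 10.51 and 10.56. Its change was -0.02 ± 0.07 in females and 0.10 ± 0.07 in males, and the pools overlapped in females while in males the hyperoxia pools were the higher ones. H1f5 had female values of 9.26, 9.05 and 9.03 against 8.95, 8.77 and 8.85 and male values of 8.88, 8.96 and 8.96 against 8.94, 8.69 and 8.91. It changed by -0.26 ± 0.09 (limma adjusted p = 0.0769) in females and -0.08 ± 0.09 in males. H1f1 (-0.25 and -0.06) and H1f3 (-0.15 and -0.11) did not pass the adjusted p in either sex.

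**Figure D3:**
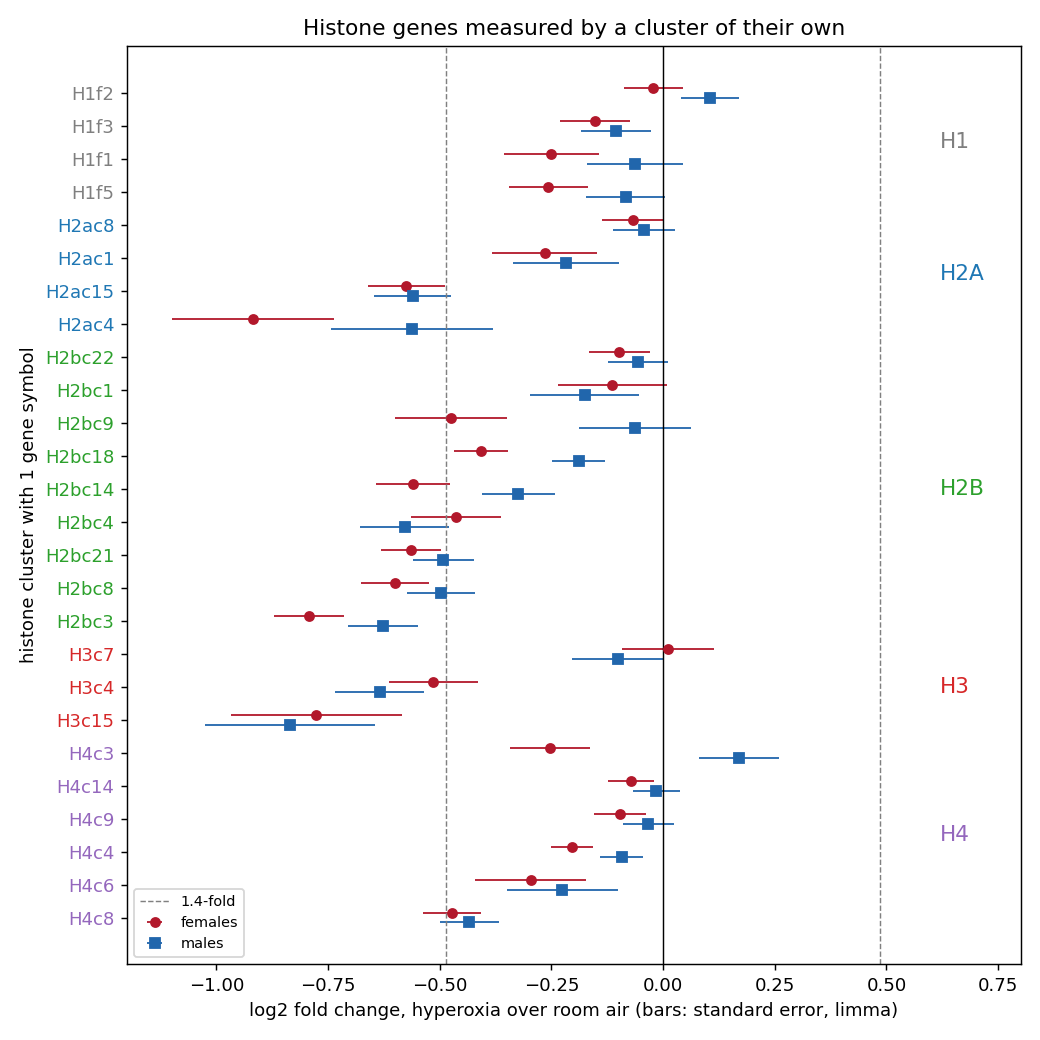
Log2 fold change in hyperoxia over room air of the 26 histone clusters that carry 1 gene symbol, with its standard error from limma, for females (circles) and males (squares); dashed lines mark a fold of 1.4 and colours the histone types. H2B, H2A and H3 genes such as H2bc3, H2ac15 and H3c15 lie left of the left dashed line in both sexes, and all H1 and H4 genes lie right of it.

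The sexes were compared by the interaction, the male minus the female change, and no member was called (0% of all clusters were called, and the smallest adjusted p among the members was 1.00). At an unadjusted p under 0.05, 3 members were found, beside 516 of all 35556 clusters. H4c3 had female values of 8.98, 8.84 and 9.0 in room air and 8.63, 8.89 and 8.55 in hyperoxia, and male values of 8.59, 8.78 and 8.68 against 8.86, 8.87 and 8.82. It changed by -0.25 in females and 0.17 in males, neither of which was called, and the interaction was 0.42 ± 0.13 (limma, unadjusted p = 0.00731). H2bc9 had an interaction of 0.41 ± 0.18 (unadjusted p = 0.0414) and H2bc18 one of 0.22 ± 0.08 (unadjusted p = 0.0264). H2ac4 and H2bc14, called in females alone, had interactions of 0.36 ± 0.26 and 0.24 ± 0.12, and H2bc4, called in males alone, one of -0.11 ± 0.14.

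Males and females did not differ in any member at the call, in room air (0.0141% of all clusters called) or in hyperoxia (0.0169% called). At an unadjusted p under 0.05 there were 13 members in room air and 1 in hyperoxia, beside 869 and 1160 of all 35556 clusters. The 13 held all 10 shared H3 clusters, whose male minus female difference was -0.27 to -0.23, and H2ac4 (-0.55), H2bc18 (-0.19) and H4c3 (-0.26). The 10 H3 clusters rest on shared probes and count as 1 observation, and the adjusted p of each was 1.00. In hyperoxia the same H3 clusters differed by -0.09 to -0.05.

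Of 18 listed histone genes outside the rule for members, 13 were measured by a cluster with 1 symbol. Of these, 3 were called lower in females, H2aw among them, 1 in males and none higher. The shares of all clusters called lower were 2.93% in females and 3.39% in males. The medians of the list were 0.01 in females and -0.08 in males. H2az2, which encodes an H2A.Z protein that is made throughout the cell cycle and marks promoters, changed by -0.88 ± 0.08 (limma adjusted p = 4.81e-05) in females and -0.81 ± 0.08 (adjusted p = 6.96e-05) in males. Its female values were 10.65, 10.90 and 10.81 in room air and 9.95, 9.89 and 9.89 in hyperoxia, and its male values 10.64, 10.68 and 10.78 against 10.02, 9.86 and 9.80. H2az1, the gene of the other H2A.Z protein, changed by -0.12 and -0.16 and was not called. Cenpa, the H3 form of centromeres, was at -0.53 in females, which was called, and -0.43 in males. H2aw, an H2A gene whose older name begins with Hist3h but whose present symbol lies outside the rule for members, was at -0.51 in females, which was called, and -0.46 in males. H3f3b was not measured by a cluster with 1 symbol.

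The genes that make and process the histone mRNAs gave no called decrease. Of 28 measured genes for histone transcription and 3′ end processing, none was called in either sex, with medians of 0.06 and 0.04. Of all clusters, 2.93% were called lower in females and 3.39% in males, so the absence of calls in a list this short says little. By adjusted p alone, genes of the list passed in both directions. Cpsf3 was lower in females (-0.26, limma adjusted p = 0.00816) and Tut4 in males (-0.33, adjusted p = 0.0194). Cstf2 was higher in females (0.297, adjusted p = 0.0122) and males (0.305, adjusted p = 0.00988). Slbp changed by 0.03 ± 0.09 in females and -0.14 ± 0.09 in males, and Npat by 0.12 ± 0.12 and -0.08 ± 0.12. Of 20 genes for histone chaperones and for the modification or import of new histones, 1 was called higher in each sex and none lower. Of all clusters, 3.59% were called higher in females and 3.94% in males. The called gene was Ipo4, an importin that carries histones H3 and H4 into the nucleus, at 0.85 ± 0.07 (limma adjusted p = 3.35e-05) in females and 0.93 ± 0.07 (adjusted p = 1.63e-05) in males. Its values were 9.76, 9.76 and 9.61 against 10.44, 10.67 and 10.56 in females and 9.75, 9.74 and 9.62 against 10.59, 10.69 and 10.62 in males.

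Of 42 S phase genes (DNA replication, nucleotide synthesis and the G1 to S cyclins), 1 was called lower in females and none in males. The median was -0.07 in each sex. Of all clusters, 2.93% were called lower in females and 3.39% in males. The called gene was Ccna2, which encodes cyclin A2, at -0.64 ± 0.10 (limma adjusted p = 0.0016) in females and -0.47 ± 0.10 (adjusted p = 0.00832) in males. Its female values were 8.68, 8.64 and 8.57 against 8.19, 7.87 and 7.92, and its male values 8.30, 8.53 and 8.20 against 7.89, 7.78 and 7.93. By adjusted p alone, genes of the S phase list passed in both directions. E2f2 (-0.38 in females and -0.33 in males) and Mcm7 (-0.35 and -0.28) were lower in both sexes, and Pcna (0.19 and 0.27) was higher. The mean of the S phase list over genes ranged from 8.28 to 8.34 in female room air and from 8.18 to 8.29 in female hyperoxia, and from 8.25 to 8.34 against 8.20 to 8.29 in males, so the pools overlapped in both sexes.

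Genes of cycling cells had lower means in the hyperoxia pools. Of 13 measured, 3 were called lower in females (Mki67, Top2a and Ccnb2) and 1 in males (Mki67), with medians of -0.40 and -0.24. Over all clusters, 2.93% were called lower in females and 3.39% in males. Mki67, a protein of cycling cells, changed by -0.63 ± 0.14 (limma adjusted p = 0.00977) in females and -0.57 ± 0.14 (adjusted p = 0.0157) in males. Top2a, the topoisomerase that untangles copied DNA, was at -0.54 (adjusted p = 0.0175) and -0.37 (adjusted p = 0.0851). The mean of the list was 7.99 to 8.08 in female room air against 7.61 to 7.78 in female hyperoxia, and 7.86 to 8.02 against 7.55 to 7.70 in males, with no overlap in either sex. Among single clusters, 15.7% in females and 16.7% in males had every hyperoxia array below every room air array. The part of cycling cells in the fall of the histone clusters was not tested.

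**Figure D4:**
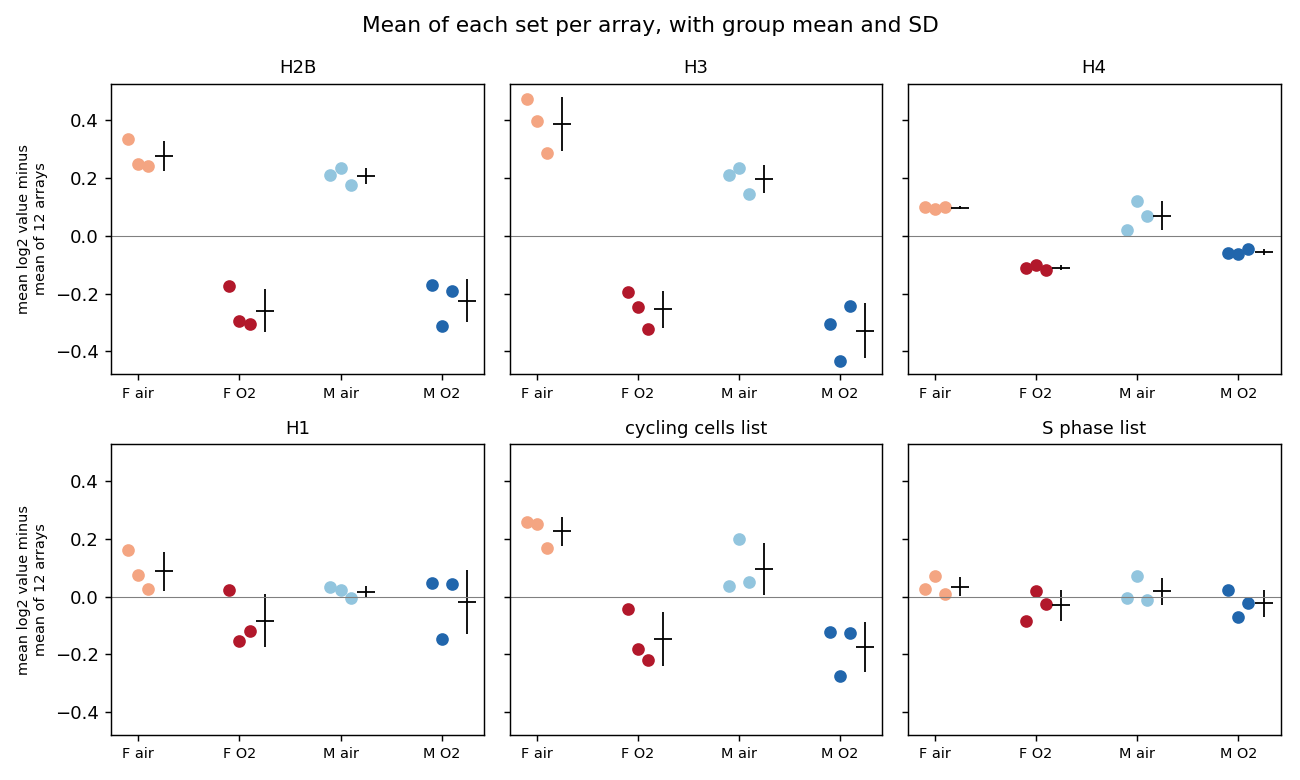
Mean log2 value over the clusters of 4 histone types and over the genes of the cycling cell and S phase lists, on each of the 12 arrays, after subtracting the mean of the 12 arrays; bars give the group mean and SD (F female, M male, air room air, O2 hyperoxia). Hyperoxia pools lie below room air pools of the same sex for H2B, H3, H4 and the cycling cell list and overlap with them for the S phase list, while H1 is apart in females and not in males.

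Markers of other cells also differed between the pools. The mean of 7 lung epithelial genes was 13.17 to 13.27 in female room air against 13.02 to 13.14 in female hyperoxia, and 13.25 to 13.34 against 13.13 to 13.16 in males, with no overlap in either sex. Of these genes Sftpa1, a surfactant protein, was called lower (-0.64 and -0.60) and Aqp5, a water channel of type I cells, higher (0.50 and 0.52) in both sexes. Among single clusters, 15.7% in females and 16.7% in males had every hyperoxia array below every room air array. The mean of 3 endothelial genes was 12.51 to 12.58 against 12.37 to 12.49 in females and 12.54 to 12.67 against 12.53 to 12.56 in males, and none of the 3 was called. By adjusted p alone Pecam1 was lower in females (-0.35, limma adjusted p = 0.00244) and males (-0.34, adjusted p = 0.0026). Cdh5 (-0.004 and 0.04) and Cldn5 (0.02 and 0.11) did not pass. The mean log2 value of 14 squamous epithelium genes varied between 7.31 and 10.18 and was highest in female hyperoxia replicate 1 (10.18) and female room air replicates 1 (9.94) and 3 (9.42). None of these 14 genes was called in either sex. Without those 3 pools, 24 members were called in females and 25 in males. The female arm then set 1 room air pool against 2 hyperoxia pools, with the spread taken from all groups. With the squamous mean as a covariate 25 were called in each sex. Of the B cell genes, 3 of 4 measured were called lower in males and none in females, with list means of 9.52 to 9.96 in male room air against 9.05 to 9.17 in male hyperoxia and of 9.73 to 9.99 against 9.27 to 9.68 in females. Of the T cell genes, 2 of 5 were called lower in males and none in females, with means of 8.35 to 8.45 against 8.03 to 8.21 in males and 8.36 to 8.68 against 8.17 to 8.36 in females. Of the neutrophil genes, 4 of 5 were called lower in males and none in females, with means of 9.02 to 9.74 against 7.95 to 8.16 in males and of 8.52 to 9.38 against 8.31 to 8.84 in females. In females and males the median changes were -0.26 and -0.71 for B cells, -0.29 and -0.28 for T cells and -0.36 and -1.43 for neutrophils. The shares of all clusters called lower were 2.93% in females and 3.39% in males. As 0% of all clusters were called in the interaction, calls in males alone do not show a difference between the sexes. Of the erythroid list only Alas2 was measured, at -0.66 in females, which was called, and -0.39 in males. The part of these cells in the fall of the histone clusters was not tested.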

How the data were processed

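Lung RNA pools were hybridised to 12 Mouse Gene 1.0 ST arrays after the WT Expression kit. The values deposited by the authors are on the log2 scale and come from Robust Multichip Average (RMA, that is, background correction, quantile normalization and a median polish over probes), its version and genome build not given in the sources used. They entered the fit unchanged for all 35556 clusters, which were named from the platform's annotation. Group means were fitted with limma 3.58.1 in R 4.3.3 without the replicate block, with contrasts for each sex, their mean, their difference and the sexes within each treatment. The procedure was tested on simulated data. Calls needed an adjusted p under 0.05 and a fold of at least 1.4.

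Members, gene lists and tests were chosen with earlier results of these data known. The planned cycling cell markers were Mki67, Top2a, Ccnb1, Cdk1 and Birc5, while the list used held 14 genes. The naming rule took up to 4 called members per type with the largest change, and per type the brightest member and that with the smallest interaction p. From other lists it took up to 4 called genes and Slbp, Npat, H2az1, H3f3b, Mki67 and Top2a. Not all of these are named in the text or printed with the value of every array. H1f1, H1f3, H2ac1, H2ac8, H2bc1, H2bc8, H2bc9, H2bc14, H2bc21, H2bc22, H3c4, H3c7, H4c6, H4c8, H4c9 and H4c14 were named after their values were seen. Cpsf3, Tut4, Cstf2, E2f2, Mcm7, Pcna, Pecam1, Cdh5 and Cldn5 of the other lists are also named outside that rule. The alternatives were the replicate block, each sex or treatment fitted alone, a trend with robust eBayes, array weights, quantile normalization again, median centring, a mean log2 of at least 5, no fold threshold or one of 2, an adjusted p under 0.01, clusters with 1 symbol, the squamous mean as a covariate, leaving out the 3 pools highest in it, and leaving out each array. Counting each annotated set once, each sex alone with the block, and adjustment over annotated clusters were chosen after seeing the data. Precision is limited by 3 pools per group. Scan dates were not analysed here, so array batches were not tested. Same-numbered pools of females deviated together over all clusters (r 0.283, 0.698 and 0.465) and those of males did not all do so (r -0.168, 0.33 and 0.231). Pools of different number also did so, with r up to 0.582 in females and 0.401 in males. Nothing in the labels says what a number marks. The numbers were not taken as pairs.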

Additional observations from a re-analysis of the deposited data

How the results depend on the processing

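No direction of a type median turned under any alternative except that of H1 in males, which was 0.01 without male hyperoxia replicate 2. Without a fold threshold 38 members were called in females, 32 in males and 39 with both sexes averaged, and at a fold of 2 the counts were 0. With clusters of 1 symbol they were 8, 7 and 8, and with 1 cluster per annotated set 11, 10 and 11, both by construction. Median centring gave 15 in males and 24 in females. Leaving out 1 array gave 24 to 27 in females, 12 to 25 in males (12 without male hyperoxia replicate 2) and 24 to 25 averaged. The replicate block gave 25 in females, 24 in males, 25 averaged and 0 in the interaction and in both sex contrasts, and with each sex fitted alone it gave 25 and 22. Under array weights the female medians were -0.71 for H2B and -0.84 for H3, and without the 3 pools highest in squamous genes, which left 1 female room air pool, -0.55 for H2A. The H4 medians of females and males were -0.25 and -0.20 after quantile normalization again and -0.17 and -0.11 after median centring. With 1 symbol the medians of females and males were -0.48 and -0.32 for H2B, -0.52 and -0.63 for H3 and -0.28 and -0.18 for all members, and -0.063 for H4 in males. With 1 cluster per set they were -0.35 and -0.22 for all members and -0.10 for H4 in males. The cause of the moves with weights, normalization and centring was not tested.

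Calls of single members also moved. H2bc4 in females was called at -0.52 after quantile normalization again, and at -0.52 to -0.50 when female room air replicate 2, or replicate 1 or 3 of female hyperoxia, was left out. H2ac4 in males passed with an adjusted p of 0.0243 to 0.0478 in 5 alternatives, among them leaving out male room air replicate 1 and female hyperoxia replicate 1 or 3. The cluster of 20 genes was called in females at -0.55 to -0.49 in 5 alternatives, among them leaving out replicate 3 of female room air or replicate 1 of female hyperoxia. H2bc9 in females was called at -0.62 with array weights, at -0.50 after quantile normalization again and at -0.54 to -0.52 without female hyperoxia replicate 1 or 2. H3c4 in females was not called after quantile normalization again (-0.47) or median centring (-0.48). The number of arrays, with 3 pools per group, limits how small a change could pass, and values near 5 or 13 lie at the ends of the range of the arrays.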
